A study of Mus musculus with 8 samples.

Results

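The genes described here are the Ifi200 family and Aim2, which encode cytosolic and nuclear DNA sensors of the interferon-inducible HIN-200 group. The set was listed as 6 genes, Ifi203, Ifi204, Ifi205, Ifi211, Mndal and Aim2, and its members were selected on these arrays, with results of the arrays known. A member was measured where the transcript identifier of an array probe was paired with its symbol in the RefSeq gene table, and where a gene had several probes the brightest over all arrays was used. Ifi204, Ifi211, Mndal and Aim2 had 1 probe each, so 4 of the 6 members were measured among 37018 genes and transcripts on the array. Ifi203 and Ifi205 were matched to no probe and their expression was not analysed here.

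RNA came from peritoneal macrophages of C57BL/6 background mice, either wild-type littermates (WT) or LysMCre-fur(fl/fl) mice (KO), in which Cre expressed from the lysozyme 2 locus deletes the floxed gene of the proprotein convertase FURIN in myeloid cells. Cells were left unstimulated or were given lipopolysaccharide (LPS, a TLR4 ligand of Gram-negative bacteria) at 1 μg/ml for 1, 4 or 24 h. Each of the 8 two-colour arrays paired KO with WT RNA, with 2 biological replicates per time point, KO carrying Cy5 in replicate 1 and Cy3 in replicate 2. Replicate number and dye orientation therefore cannot be told apart, and because the unstimulated and 1 h arrays lay in one row of the slide and the 4 h and 24 h arrays in the other, time and slide row cannot be told apart for the later times.

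HIN-200 proteins bind DNA through a C-terminal HIN domain, and most carry an N-terminal pyrin domain through which they assemble with partners. AIM2 senses DNA in the cytosol, recruits the adaptor ASC (encoded by Pycard) and activates caspase-1, which matures IL-1β and opens the pore protein gasdermin D. Ifi204 is a mouse counterpart of human IFI16 and acts upstream of STING. The mouse genes form a cluster on chromosome 1, and many of them are known targets of type I interferon, which macrophages make after TLR4 stimulation.

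In the RefSeq table (GRCm38.p6) the cluster held 14 HIN-200 genes in the order Aim2, Ifi206, Ifi214, Ifi213, Ifi209, Ifi208, Ifi207, Ifi204, Ifi203-ps, Mndal, Ifi211, Ifi203, Ifi202b and Ifi205. The promoters are shown because most of the measured genes were higher 4 h after LPS and Aim2 was not past the test. A window ran from 250 bases before to 50 bases after a transcript start in RefSeq, and 12 of the 14 genes had at least 1 window. Ifi204 and Ifi203-ps had no entry. The lines that follow give the last 120 bases before the start of 7 measured genes, 5′ to 3′ on the strand of the gene in build GRCm38.p6. Capitals mark the core of the interferon-stimulated response element, the letters GAAA, any 2 bases and GAAA.

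Ifi211, chr1:173913047-173913166, minus strand: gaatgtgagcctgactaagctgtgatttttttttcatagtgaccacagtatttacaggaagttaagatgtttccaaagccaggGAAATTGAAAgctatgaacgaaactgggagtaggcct
Mndal, chr1:173880188-173880307, minus strand: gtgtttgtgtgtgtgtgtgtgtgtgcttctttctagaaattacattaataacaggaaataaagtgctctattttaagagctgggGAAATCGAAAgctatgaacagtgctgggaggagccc
Ifi207, chr1:173741810-173741929, minus strand: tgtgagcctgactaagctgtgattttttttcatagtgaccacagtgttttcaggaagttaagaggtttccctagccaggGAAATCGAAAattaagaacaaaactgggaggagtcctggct
Ifi208, chr1:173673545-173673664, plus strand: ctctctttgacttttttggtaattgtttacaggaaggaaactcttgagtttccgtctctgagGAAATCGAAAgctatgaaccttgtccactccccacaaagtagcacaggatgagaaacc
Ifi214, chr1:173535958-173536077, minus strand: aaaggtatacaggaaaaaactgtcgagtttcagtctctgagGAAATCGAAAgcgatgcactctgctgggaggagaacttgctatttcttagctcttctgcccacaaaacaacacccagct
Ifi209, chr1:173630739-173630858, plus strand: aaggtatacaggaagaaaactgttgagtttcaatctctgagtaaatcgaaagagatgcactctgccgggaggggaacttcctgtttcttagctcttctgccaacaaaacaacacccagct
Aim2, chr1:173420484-173420603, plus strand: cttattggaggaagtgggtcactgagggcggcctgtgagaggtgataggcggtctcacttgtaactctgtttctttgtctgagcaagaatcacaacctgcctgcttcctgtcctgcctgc

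This core was searched on both strands. It occurred in 1131 of 32851 promoter windows of all genes (3.44%) and in 1079 of the 27025 genes with a window (3.99%), and it occurred in 9 of the 12 HIN-200 genes with a window. The 9 genes were Ifi206, Ifi214, Ifi213, Ifi208, Ifi207, Mndal, Ifi211, Ifi203 and Ifi205. In the first 8 of them a core lay on the strand of the gene and began between 35 bases (Ifi203) and 79 bases (Ifi214) before a start. In Ifi205 it began 134 bases before the start, with another match on the opposite strand just after the start. The windows of Aim2, Ifi209 and Ifi202b held no match. Some of the promoters are near copies of each other: over the best local alignment the windows of Ifi214 and Ifi209 were 95.7% identical, those of Ifi213 and Ifi208 98.9%, those of Mndal and Ifi203 94.3% and those of Ifi207 and Ifi211 87.5%. The window of Aim2 aligned with no other over more than 77 of its 300 bases. Matches in near copies are not independent of each other. Other motifs were searched likewise. TTCNNNGAA, the gamma-activated site, was in 1 of the 12 genes (9.55% of all genes with a window), and an NF-κB site, GGGA and CC with any 4 bases between them, was in 4 of the 12 (22.9% of all genes with a window). The motifs may overlap each other, and a match is only a match of letters.

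**Figure D1:**
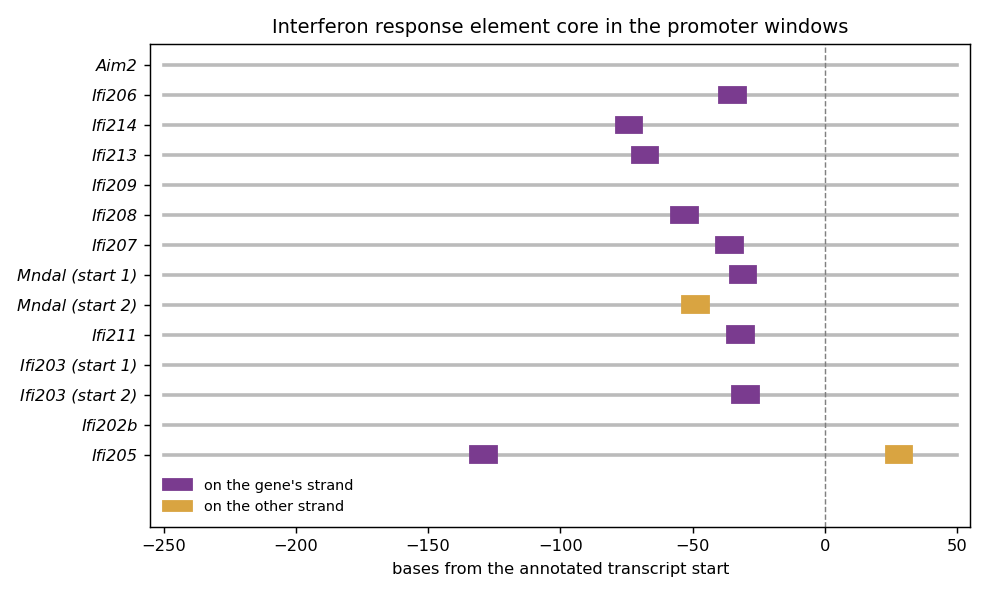
Position of the interferon-stimulated response element core in the RefSeq promoter windows of the HIN-200 genes, in their order on chromosome 1. The x axis gives bases from the annotated transcript start (dashed line), each grey line is 1 window and each box 1 match, purple on the strand of the gene and yellow on the other strand. Matches lay in windows of 9 of 12 genes, most of them starting within 79 bases of the transcript start, and none in those of Aim2, Ifi209 and Ifi202b.

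The labels were checked first. Furin was lower in the KO RNA on all 6 arrays at 0, 1 and 24 h, with log2 KO/WT between -0.85 and -0.55, but its ratios at 4 h were 0.00 and 0.33, so the 4 h RNA is called labelled KO, and each KO/WT value at 4 h and each mean over the time points rests on that label. Lyz2, whose locus carries the Cre, was lower on all 8 arrays (log2 KO/WT -1.85 to -0.74). All 9 measured macrophage markers were well above background in all 16 channels, and their mean log2 intensity lay between 12.09 and 13.92. Markers of other peritoneal cells were present too: all 8 B cell markers and all 6 mast cell markers were above background in every channel, as were 6 of 8 T and NK cell markers and 2 of 5 neutrophil markers. The other 2 T and NK cell markers, Ncr1 and Klrb1c, which mark NK cells, were not above background in any channel. Nor were the other 3 neutrophil markers, Mpo, S100a9 and Cxcr2, nor Xcr1 of dendritic cells, nor Epx and Prg2 of eosinophils. In bulk RNA fewer cells of a type and less RNA per cell cannot be told apart.

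LPS raised Ifi211, Ifi204 and Mndal in WT and in RNA labelled KO at every time, with the highest levels at 4 h. Ifi211 had the largest change of the 4, 70.7-fold at 4 h in WT. Aim2 did not follow them, with changes that did not pass the test at 1 and 4 h and a fall at 24 h. All 4 probes were well above background in all 16 channels, none was flagged as saturated, and levels are normalised log2 intensities, which cannot be compared between probes.

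Ifi211 was the most dynamic member. In WT the 2 replicates read 10.25 and 10.46 unstimulated, 14.03 and 14.46 after 1 h, 16.33 and 16.67 after 4 h, and 14.87 and 15.24 after 24 h. In KO they read 11.52 and 11.72 unstimulated, 14.57 and 14.76 after 1 h and 15.34 and 15.63 after 24 h, and RNA labelled KO read 16.53 and 16.84 after 4 h. No value of 1 time point overlapped those of another in either genotype. The WT change from unstimulated was 3.89 ± 0.19 (SE, log2 scale) at 1 h, 6.14 ± 0.19 at 4 h and 4.70 ± 0.19 at 24 h (limma, adjusted p = 1.64e-08, 3.47e-11 and 6.57e-10). The KO change (labelled KO at 4 h) was 3.04 ± 0.19, 5.06 ± 0.19 and 3.86 ± 0.19 at the same times (adjusted p = 2.15e-07, 1.91e-10 and 4.02e-09). At 1 h Ifi211 was 14.8-fold over unstimulated in WT and 8.24-fold in KO, against 70.7-fold in WT and 33.4-fold in RNA labelled KO at 4 h. These folds start from the unstimulated levels, on whose ratio Ifi211 was selected.

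Ifi204, the IFI16 counterpart, rose by less. WT replicates read 12.99 and 13.32 unstimulated, 14.19 and 14.78 after 1 h, 16.41 and 16.73 after 4 h, and 15.12 and 15.50 after 24 h. KO replicates read 13.50 and 13.95 unstimulated, 14.52 and 14.78 after 1 h and 15.43 and 15.89 after 24 h, and RNA labelled KO read 16.54 and 16.68 after 4 h. The time points did not overlap within a genotype, whereas WT and KO overlapped at 1 and 24 h and WT and labelled KO at 4 h. The WT change was 1.33 ± 0.24, 3.42 ± 0.24 and 2.15 ± 0.24 at 1, 4 and 24 h (SE, log2 scale, limma, adjusted p = 0.00236, 5.8e-08 and 7.97e-06). In KO (labelled KO at 4 h) it was 0.93 ± 0.24, 2.89 ± 0.24 and 1.93 ± 0.24 (adjusted p = 0.0293, 3.03e-07 and 2.33e-05). The KO change at 1 h lost its call without unstimulated replicate 1 (0.70, adjusted p = 0.273) and without LPS 1 h replicate 2, and kept it under the other 14 settings tried (adjusted p from 6.39e-05).

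Mndal, a nuclear HIN-200 protein named for its likeness to human MNDA, had the smallest change of the 3 at 1 h. WT replicates read 12.06 and 12.27 unstimulated, 12.86 and 13.03 after 1 h, 15.14 and 15.17 after 4 h, and 13.28 and 13.37 after 24 h. KO replicates read 12.28 and 12.54 unstimulated, 12.73 and 12.90 after 1 h and 13.69 and 13.84 after 24 h, and RNA labelled KO read 14.93 and 14.98 after 4 h. The 24 h values lay between those at 1 and 4 h in WT and KO. The WT change was 0.79 ± 0.11, 2.99 ± 0.11 and 1.16 ± 0.11 (SE, log2 scale, limma, adjusted p = 0.000502, 2.13e-10 and 2.82e-06), and the KO change (labelled KO at 4 h) 0.41 ± 0.11, 2.54 ± 0.11 and 1.36 ± 0.11 (adjusted p = 0.0478, 9.93e-10 and 6.94e-07). The KO change at 1 h sat at the threshold and passed it under 7 of 16 alternative settings, with adjusted p between 0.0207 and 0.398.

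Aim2, the inflammasome sensor, passed the test only at 24 h. WT replicates read 7.90 and 8.21 unstimulated, 8.13 and 8.16 after 1 h, 8.08 and 8.34 after 4 h, and 7.34 and 7.48 after 24 h. KO replicates read 7.87 and 8.05 unstimulated, 7.97 and 8.14 after 1 h and 7.45 and 7.48 after 24 h, and RNA labelled KO read 8.09 and 8.27 after 4 h. In WT the unstimulated, 1 h and 4 h values overlapped. In KO the unstimulated and 1 h values overlapped and those of RNA labelled KO at 4 h lay above the unstimulated ones, while the 24 h values lay below all others in each genotype. The changes at 1 h were 0.09 ± 0.13 in WT and 0.10 ± 0.13 in KO, and at 4 h 0.15 ± 0.13 in WT and 0.22 ± 0.13 in RNA labelled KO, none past the threshold (limma, adjusted p = 0.85, 0.816, 0.45 and 0.224). The 4 h values turned to -0.27 and -0.21 without scaling between arrays. At 24 h Aim2 fell by 0.65 ± 0.13 in WT and by 0.49 ± 0.13 in KO on the log2 scale (adjusted p = 0.00137 and 0.00989). The KO call at 24 h was lost without unstimulated replicate 2 (adjusted p = 0.0739) and without either of the 24 h arrays, all 3 values keeping the direction. Many cell type markers were lower at 24 h as well: 7 of 9 macrophage markers fell and 1 rose in each genotype (list median -2.03 in WT and -2.33 in KO), 5 of 6 mast cell markers in each (-1.69 and -1.39), 3 of 8 B cell markers in WT and 2 in KO (-0.42 and -0.33), and 2 and 3 of 8 T and NK cell markers. In each genotype 1 of 5 neutrophil, 1 of 6 dendritic cell and 1 of 4 eosinophil markers rose, and 1, 3 and 1 fell. Their part in the Aim2 value was not tested.

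**Figure D2:**
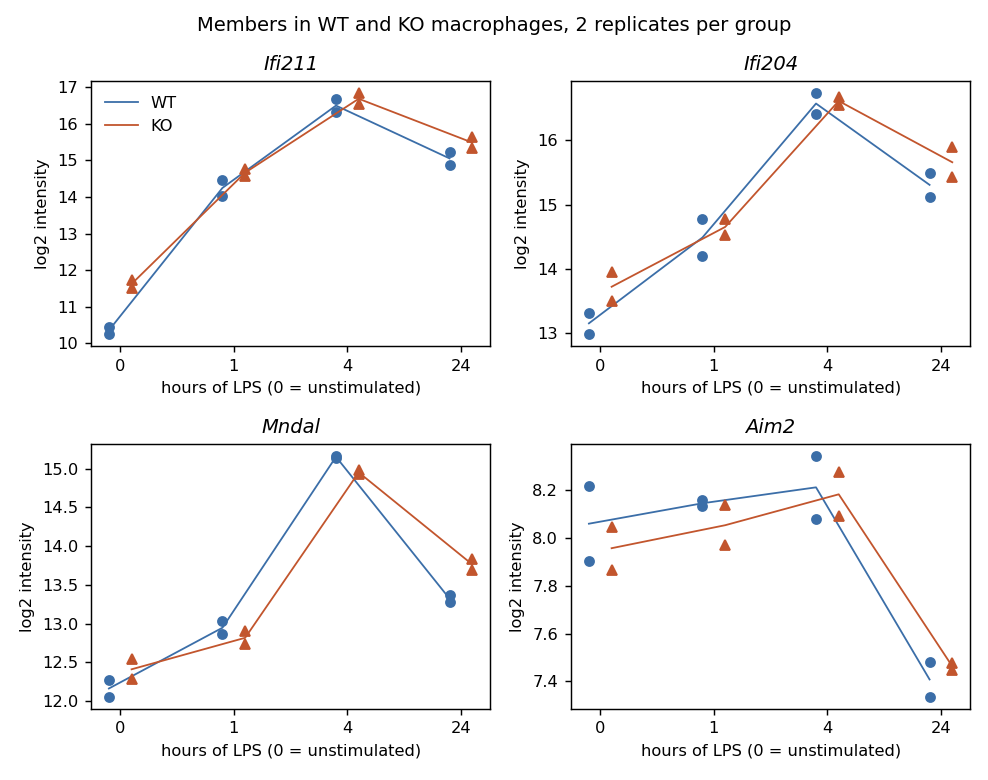
Normalised log2 intensity of the 4 measured members against hours of LPS (unstimulated at 0), with blue circles for WT, red triangles for KO (labelled KO at 4 h), 1 point per replicate and lines through the means of 2 replicates. The y axis differs between panels. Ifi211, Ifi204 and Mndal peaked at 4 h, whereas Aim2 kept to between 7.87 and 8.34 up to 4 h and fell to between 7.34 and 7.48 at 24 h.

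Read against all genes, these counts were 3 of 4 members higher at each time in each genotype as labelled, and 1 of 4, Aim2, lower at 24 h in both. Of the 36927 genes and transcripts in this fit, 3.36% were higher and 5.16% lower after 1 h in WT, 15.5% and 19.2% after 4 h, and 13.5% and 16.9% after 24 h. In KO 3.08% were higher and 4.45% lower after 1 h, 16.3% and 19.7% after 4 h in RNA labelled KO, and 12.8% and 15.9% after 24 h. The split between higher and lower calls depends on scaling between arrays: at 4 h in WT 5728 of 12833 calls were higher with it and 3306 of 11908 without it. Without unstimulated replicate 1, calls at 1 h were 1807 in place of 3143 in WT. The median change over all genes was between -0.02 and 0.00, against member medians of 1.06, 3.20 and 1.66 at 1, 4 and 24 h in WT.

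Of the 8 other HIN-200 genes of the cluster in the RefSeq table, 6 had a probe. Of the 6, 1 rose at 1 h in both genotypes, 6 rose at 4 h in WT and 5 in RNA labelled KO, and 5 rose at 24 h in both, and none fell. Their median changes in WT were -0.08, 3.11 and 2.52 at 1, 4 and 24 h. The 1 that rose early was Ifi207, a nuclear member of the family, at 1.77 ± 0.27 in WT and 1.52 ± 0.27 in KO at 1 h (SE, log2 scale, limma, adjusted p = 0.000662 and 0.00276). Its second probe read 1.84 and 1.61.

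Ifi208, Ifi209, Ifi213 and Ifi214 had a later course. At 1 h their WT changes were between -0.26 (Ifi208) and -0.05 (Ifi214) and their KO changes between -0.07 (Ifi213) and 0.04 (Ifi214), none past the threshold. At 4 h Ifi209 had risen by 4.33 ± 0.21 in WT and 4.13 ± 0.21 in RNA labelled KO (limma, adjusted p = 1.58e-09 and 2.5e-09). Ifi214 had risen by 3.22 ± 0.20 and 2.95 ± 0.20 (adjusted p = 1.6e-08 and 3.76e-08), and Ifi208 by 3.00 ± 0.25 and 2.91 ± 0.25 (adjusted p = 3.41e-07 and 4.73e-07). The other 3 Ifi208 probes gave larger WT changes at 4 h, 4.15 to 4.27, and the 3 Ifi209 probes gave 3.49 to 4.33. Ifi213 was not well above background on any unstimulated or 1 h array, and at 4 h it was at least 9.74-fold higher in WT and at least 11.7-fold higher in RNA labelled KO (adjusted p = 3.25e-10 and 1.82e-10). For such a gene the bound compares the bright mean with the higher of the dim signal and the lowest signal called above background on that array.

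The later group also held its level longer. From 4 to 24 h the WT mean fell by 0.66 for Ifi208, by 0.86 for Ifi209, by 0.26 for Ifi213 and by 0.53 for Ifi214 on the log2 scale. Over the same interval it fell by 1.78 for Ifi207, by 1.26 for Ifi204, by 1.83 for Mndal and by 1.44 for Ifi211. These are differences of group means with 2 replicates each and were not tested. Ifi202b was near background: 2 of its 16 channels were above it, and the WT value at 4 h, above background on 1 of 2 arrays, was at least 1.43-fold higher than unstimulated (adjusted p = 0.0198).

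In their order on the chromosome the 4 genes that rose at 1 h, Ifi207, Ifi204, Mndal and Ifi211, were neighbours among the measured genes, as were Ifi214, Ifi213, Ifi209 and Ifi208, which passed the test at 4 h and not at 1 h. The response element core was found in Ifi207, Mndal and Ifi211 and also in Ifi208, Ifi213 and Ifi214, and Ifi204 had no window. Ifi209 had no exact match. Its window was 95.7% identical to that of Ifi214, and at the place of the Ifi214 core only the first base differed. The part of the element in the timing was not tested. No difference between genes was tested. Many of these genes are similar in sequence and the probe sequences were not used here, so signal shared between paralogs was not tested.

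**Figure D3:**
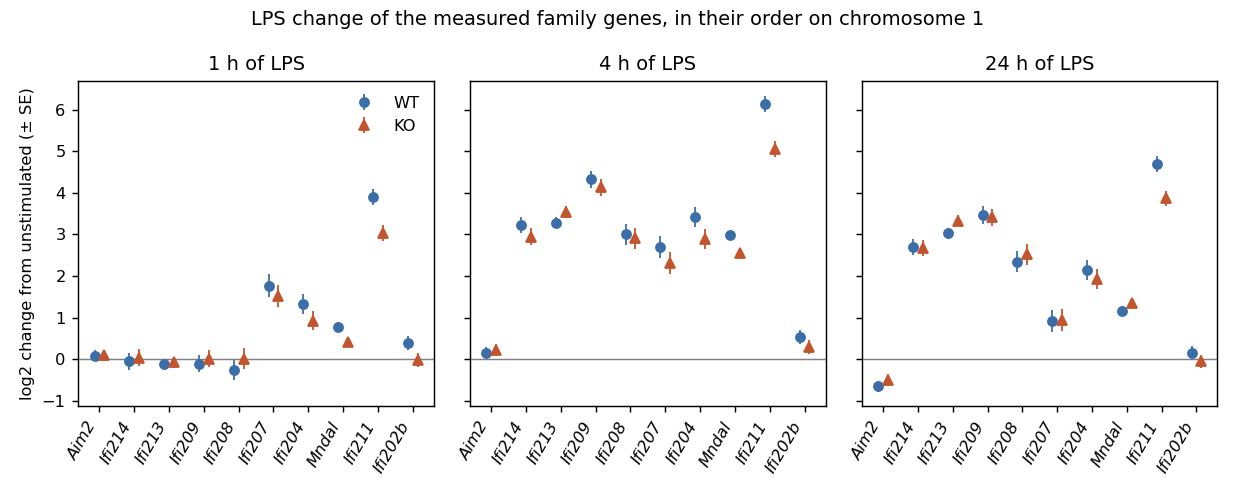
Log2 change from unstimulated (y axis, ± SE from the limma fit, 2 replicates per group) of the 10 measured HIN-200 genes after 1, 4 and 24 h of LPS, placed along the x axis in their order on chromosome 1, with blue circles for WT and red triangles for KO (labelled KO at 4 h). At 1 h Ifi207, Ifi204, Mndal and Ifi211 stood above 0, and at 4 h Ifi214, Ifi213, Ifi209 and Ifi208 stood between 2.91 and 4.33.

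The patterns most like each member over the 16 channels were taken from 12759 named genes that were above background in at least 8 channels. For Ifi211 they were Ptgs2, the inducible cyclooxygenase (Pearson r = 0.984), Csf2, which encodes GM-CSF (0.982), and Spred1, an inhibitor of Ras-ERK signalling (0.981). For Mndal they were Edn1, which encodes endothelin 1 (0.991), Il2ra, the interleukin 2 receptor α chain (0.989), and Sp140, a nuclear body protein (0.988). For Ifi204 they were Agfg1 (0.994), Mapre1 (0.989) and Vta1 (0.983). For Aim2 they were Rab10 (0.961), Phlpp1 (0.957) and Fcer2a, the low-affinity IgE receptor of B cells (0.954). The channels of an array share a hybridisation, and replicate number goes with dye orientation, so these values are a description. With Ifi207, Ifi208, Ifi209, Ifi213 and Ifi214 the correlation was 0.853 to 0.903 for Ifi204, 0.762 to 0.871 for Ifi211, 0.818 to 0.885 for Mndal and -0.341 to 0.345 for Aim2.

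The next comparison asks whether loss of FURIN changed the level of these genes. Ifi211 was selected on the unstimulated ratio, so that ratio, its mean over times and its response differences are given as a description. Its log2 KO/WT was 1.27 in replicate 1 and 1.27 in replicate 2 unstimulated, 0.11 and 0.73 after 1 h, -0.14 and 0.51 after 4 h, and 0.10 and 0.76 after 24 h. The resting values were thus higher in KO on both arrays, by 2.41-fold as their mean, and the ratio was smaller on every LPS array. The KO and WT intensities of Ifi211 did not overlap unstimulated, at 1 h or at 24 h, and those of WT and labelled KO overlapped at 4 h. Its KO/WT ratio did not pass the threshold at 1, 4 or 24 h (0.42, 0.19 and 0.43 ± 0.21 SE, limma, adjusted p = 0.963, 1 and 1).

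Ifi204 differed between the replicates. Its log2 KO/WT was 0.18 and 0.96 unstimulated, -0.26 and 0.59 after 1 h, -0.19 and 0.27 after 4 h, and -0.07 and 0.77 after 24 h, in the order replicate 1 and replicate 2. All 4 arrays of replicate 2, with KO in Cy3, were above 0, and 1 of 4 arrays of replicate 1 was. Its means of 0.57, 0.16, 0.04 and 0.35 ± 0.27 (SE) did not pass the threshold at any time (adjusted p = 0.926, 1, 1 and 1).

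The ratio of Mndal differed in sign between time points. Its log2 KO/WT was 0.22 and 0.27 unstimulated, -0.13 and -0.13 after 1 h, -0.19 and -0.21 after 4 h, and 0.32 and 0.56 after 24 h. The means of 0.25, -0.13, -0.20 and 0.44 ± 0.09 (SE) did not pass the threshold (adjusted p = 0.731, 1, 1 and 0.343). The KO and WT intensities overlapped at 1 h alone, KO being higher unstimulated and at 24 h, and RNA labelled KO lower at 4 h. Aim2 stayed near equality, with ratios between -0.25 and 0.19 on the 8 arrays, 5 of them below 0 including all 4 of replicate 2, and means between -0.10 and 0.05 ± 0.12 (SE, adjusted p = 1 at each time).

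**Figure D4:**
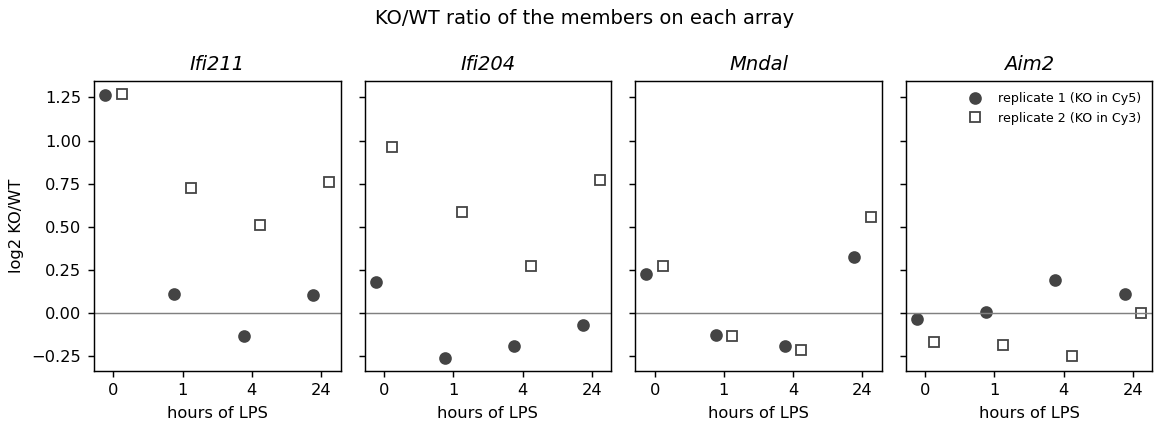
Log2 KO/WT ratio (y axis) of the 4 measured members on each of the 8 arrays against hours of LPS, with filled circles for replicate 1 (KO in Cy5) and open squares for replicate 2 (KO in Cy3). Ifi211 was 1.27 on both unstimulated arrays, Ifi204 was higher in replicate 2 at every time, Mndal ran from -0.21 to 0.56 and Aim2 kept between -0.25 and 0.19.

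In the limma fit across all 36947 genes and transcripts none of the 4 members passed the threshold at any time, at an unadjusted p under 0.05 for 2, 0, 0 and 1 members at 0, 1, 4 and 24 h, the first 2 being Mndal and Ifi211, which was selected on that ratio. Of all genes, 0% were called unstimulated and 0% after 1 h (2126 and 2017 at an unadjusted p under 0.05), 0.00812% after 4 h and 0.0244% after 24 h. By the two-sample test of the study's methods 1, 0, 1 and 1 members passed unadjusted at 0, 1, 4 and 24 h. So did 1707, 1756, 1134 and 1515 of all genes. The unstimulated member was Ifi211, which was selected on that ratio. After Benjamini-Hochberg adjustment 0 members and 0 genes passed at any time. With the replicate number, which is also the dye orientation, as a block, the share of genes called was 1.06% unstimulated, then 0.577%, 0.568% and 0.585% after 1, 4 and 24 h. In that fit Ifi204 passed unstimulated (0.57 ± 0.09 SE, adjusted p = 0.02), and so did Ifi211, which was selected on it. The SE of that fit leaves out the difference between replicate numbers, on which Ifi204 read 0.18 and 0.96. No member passed at 1, 4 or 24 h, Mndal at 24 h being nearest (adjusted p = 0.0547).

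As a mean over the 4 time points the log2 KO/WT was 0.58 ± 0.10 (SE) for Ifi211, 0.28 ± 0.13 for Ifi204, 0.09 ± 0.05 for Mndal and -0.04 ± 0.06 for Aim2. None of the other 3 members passed the threshold (limma, adjusted p = 0.53, 0.579 and 0.926), where 0.563% of all genes did, and with the replicate block Ifi204 did (adjusted p = 0.00637), where 6.01% did. The block takes out the difference between replicate numbers, whose means for Ifi204 were -0.09 and 0.65. Its p-value therefore rests on the spread between time points and not on that between replicates. Without the 4 h arrays, an alternative chosen after seeing the data, the means of the 4 members were 0.71, 0.36, 0.19 and -0.05.

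Of the other 6 HIN-200 genes, Ifi214 was above 0 on 8 of 8 arrays, Ifi208 and Ifi213 on 7, Ifi207 and Ifi209 on 6 and the near-background Ifi202b on 4. Their means over the 4 time points were 0.48 ± 0.13 (SE) for Ifi208, 0.37 ± 0.15 for Ifi207, 0.36 ± 0.11 for Ifi209, 0.35 ± 0.09 for Ifi214, 0.25 ± 0.07 for Ifi213 and 0.02 ± 0.06 for Ifi202b. Other probes gave smaller values for some: the second Ifi207 probe read 0.23, 0.00, -0.02 and 0.14 at 0, 1, 4 and 24 h, where the brightest read 0.52, 0.27, 0.14 and 0.54. The other Ifi209 probes read 0.26, 0.45, 0.17 and -0.05, and 0.22, 0.34, 0.17 and 0.16, where the brightest read 0.40, 0.52, 0.20 and 0.34. None of the 6 passed the threshold, 5 had an unadjusted p under 0.05, as had 3935 of the 36947 genes tested, and with the replicate block 5 of 6 passed (adjusted p between 0.00783 and 0.0354), where 6.01% of all genes did. As for Ifi204, these block p-values leave out the difference between replicate numbers. In the same fit 5 of 6 mast cell markers passed as higher. The list's median was 0.36, against 0.00 over all genes. The replicates differed in this too: Ifi207 was between 0.28 and 0.99 in replicate 2 and between -0.32 and 0.14 in replicate 1, whereas Ifi208 was higher in replicate 1 at 0, 1 and 4 h (0.83, 1.20 and 0.47 against -0.04, 0.12 and 0.14) and in replicate 2 at 24 h (0.77 against 0.37).

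Mast cell and T and NK cell markers differed between the replicate numbers with no overlap, and the ranges of B cell, neutrophil, dendritic cell and eosinophil markers overlapped. The mean log2 KO/WT of the 6 mast cell markers was between 0.44 and 1.05 on the arrays of replicate 2 and between -0.17 and 0.26 on those of replicate 1. That of the 8 T and NK cell markers, which include Ncr1 and Klrb1c, not above background in any channel, was between -0.42 and -0.01 in replicate 2 and between 0.35 and 0.84 in replicate 1. That of the 9 macrophage markers was between -0.28 and 0.06 on all 8 arrays, a mean over genes of both directions: as a mean over times 1 of the 9 was higher and 2 were lower, with Lyz2, Csf1r and Icam2 past the threshold. The mean of the 8 B cell markers was 0.63 and 0.15 on the 1 h arrays, where 6 of 8 had an unadjusted p under 0.05 (list median 0.39) and none passed the threshold, and between -0.23 and 0.20 on the others. The part of these cells, and of the dyes, in the ratios of Ifi204, Ifi207 and Ifi208 was not tested.

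**Figure D5:**
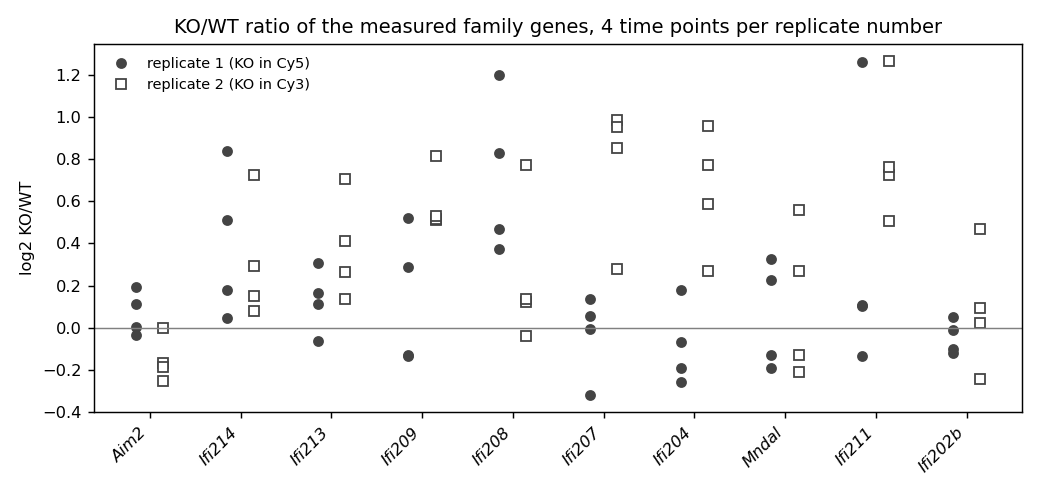
Log2 KO/WT ratio (y axis) of the 10 measured HIN-200 genes, in their order on chromosome 1, with 4 arrays per replicate number, filled circles for replicate 1 (KO in Cy5) and open squares for replicate 2 (KO in Cy3). Ifi207 and Ifi204 were higher in replicate 2 than in replicate 1 with no overlap, Ifi214 was above 0 on all 8 arrays, and Aim2 was centred near 0.

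The last comparison asks whether the response to LPS differed between the genotypes. As a description, the response of Ifi211 was smaller in KO (labelled KO at 4 h) than in WT by 0.85, 1.08 and 0.83 on the log2 scale at 1, 4 and 24 h (KO minus WT -0.85, -1.08 and -0.83 ± 0.29 SE). These values share the unstimulated arrays, on which Ifi211 was already higher in KO, and the level reached at 4 h was 16.50 ± 0.24 (SD, n = 2) in WT and 16.68 ± 0.22 in RNA labelled KO. For Mndal the difference in response was -0.38, -0.45 and 0.19 ± 0.13, for Ifi204 -0.41, -0.53 and -0.22 ± 0.38, and for Aim2 0.01, 0.07 and 0.16 ± 0.17 (limma, adjusted p = 1 for each). None of the other 3 members passed the threshold, with Mndal alone at an unadjusted p under 0.05 at 1 and 4 h and none at 24 h, and 0%, 0% and 0% of all genes passed (517, 1073 and 1230 at an unadjusted p under 0.05). With the replicate block none of the 3 passed at any time, where 0%, 0.0352% and 0.211% of genes did after 1, 4 and 24 h (members' lowest adjusted p = 0.375, Ifi204 at 4 h).

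The partners of these sensors were measured as lists, to be read against the 15.5% of all genes that were higher and 19.2% that were lower at 4 h in WT (16.3% and 19.7% in RNA labelled KO). Of 15 inflammasome and pyroptosis genes other than Aim2, 10 rose and 5 fell at 4 h in WT, and as many in RNA labelled KO. The largest rises in WT were those of Il1b (7.44 on the log2 scale), Gbp5 (6.40), a guanylate-binding protein, and Gm12250 (4.81), which encodes the GTPase IRGB10. Among the genes of the AIM2 pathway, Pycard, the ASC adaptor, fell by 1.36 in WT and by 1.48 in RNA labelled KO, and Casp1, caspase-1, rose by 1.12 and 0.93 (limma, adjusted p between 1.75e-05 and 0.000133). Of 24 genes of other DNA sensing and STING signalling, 11 rose and 10 fell at 4 h in WT, led by Zbp1 (4.36), the Z-nucleic acid sensor, Cgas (2.79), which makes the STING ligand cGAMP, and Trex1 (2.41), the cytosolic DNA exonuclease. In RNA labelled KO 10 rose and 9 fell. The counts of these lists were not recomputed without scaling between arrays.

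Type I interferon signalling was measured as a list of 14 genes. Ifnb1, interferon β, had risen by 7.01 in WT and 6.81 in KO at 1 h and by 7.19 in WT and 6.93 in RNA labelled KO at 4 h. At 1 h 3 of 14 listed interferon signalling genes were higher and 4 lower in WT, and 2 were higher and 4 lower in KO. The higher ones in WT were Ifnb1, Irf1 (1.98) and Socs1 (0.61), a transcription factor and an inhibitor of the pathway. The interferon targets Usp18, Stat2 and Irf9 were among the lower ones in both genotypes at 1 h (-0.88, -0.66 and -0.48 in WT), and in WT at 4 h they were at 4.57, 2.63 and 1.83. At 4 h 11 of the 14 rose and 2 fell in WT, and 11 rose and 1 fell in RNA labelled KO. Of 9 genes that flank the HIN-200 cluster, 1 rose and 1 fell at 4 h in WT, Slamf8 at 0.53 and Dusp23 at -2.08, and the counts were the same in RNA labelled KO. At 1 h none of the 9 passed the threshold in WT, with 3 at an unadjusted p under 0.05, as had 6750 of all 36927 genes. In KO Slamf8 passed as lower at 1 h (-0.49, limma, adjusted p = 0.036), where 4.45% of all genes were lower.

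No gene of the inflammasome, DNA sensing, interferon or flanking lists passed the threshold for KO against WT at any time, as a mean over times or in the response, without the block. Unstimulated, 4 of 15 inflammasome genes, 5 of 24 DNA sensing genes and 5 of 14 interferon genes had an unadjusted p under 0.05, as had 2126 of all 36947 genes. With the replicate block, where 1.06% of all genes passed, Il1b, Ikbke (a kinase of the interferon pathway) and Irf7 (the interferon-induced regulator of interferon genes) passed unstimulated, with log2 KO/WT of 1.34, -0.50 and 0.63 (adjusted p = 0.0135, 0.0312 and 0.0192). At 24 h Gbp5, Gbp2 and Irf1 did, with 1.08, 0.64 and 0.97 (adjusted p = 0.00658, 0.0086 and 0.00482). The response of Il1b at 24 h was smaller in KO (KO minus WT -1.79, adjusted p = 0.0396), where 0.211% of all genes passed. This value shares the unstimulated arrays, on which Il1b was already higher in KO by 1.34. As a mean over times, where 6.01% of all genes passed, 3 of 15 inflammasome genes were higher, 1 of 24 DNA sensing genes was higher and 3 were lower, 2 of 14 interferon genes were higher and 1 was lower, and 1 of 9 flanking genes was higher in that fit, Fcer1a, the IgE receptor α chain of mast cells (0.56, adjusted p = 0.00435). The 1 higher DNA sensing gene was Sting1, the STING adaptor on which Ifi204 acts, at 0.19 (adjusted p = 0.039). The lower ones were the nuclease genes Dnase2a, Rnaseh2a and Rnaseh2c, at -0.22, -0.22 and -0.19 (adjusted p = 0.0102, 0.0131 and 0.0254).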

How the data were processed

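The members and gene lists were chosen with earlier results of these data known. Per the labels and file headers, the authors hybridised 8 Agilent two-colour arrays on 1 slide, 2 per time point, and read them with Agilent Feature Extraction 10.7.3. The deposited scanner files hold intensity per spot, of which the medians of both dyes and of their local backgrounds were used. The deposited value table holds the authors' log2 ratios of Cy5 over Cy3 (r with these ratios 0.989 to 0.996, column medians 0.00 to 0.01), used as an alternative with the sign turned to KO/WT. In limma 3.58.1 (R 4.3.3) spots were corrected by normexp with an offset of 50, by loess within and by quantiles between arrays. Control and outlier spots were left out. Of 55681 gene probes, 27509 were named through RefSeq transcript identifiers (GRCm38.p6 table), for 20887 genes. The brightest probe represented a gene, unnamed probes of 1 identifier were treated alike, and 36947 of 37018 passed a mean log2 intensity of 6. No coordinates of the array annotation, which uses another build, were used.

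KO/WT was tested with lmFit and eBayes on log2 ratios, LPS effects within a genotype by separate-channel analysis (intraspot correlation 0.107, 36927 genes), with Benjamini-Hochberg adjustment and a threshold of 0.05. Between 43.8% and 51.3% of gene spots were well above background, and the number of arrays limits precision. Replicate numbers were taken as pairing samples, since the replicate 1 minus 2 difference of KO/WT correlated between time points at 0.475 to 0.679 over all 6 pairs. The p-values of the replicate block leave out the difference between replicate numbers. Scripts were tested on simulated data. Named genes were the members, Furin, Lyz2, every other measured HIN-200 gene, up to 3 genes per list with the largest change among those called, and the 3 genes most like each member. Pycard, Casp1, Irf1, Socs1, Fcer1a, the cell type markers below background, Slamf8, Dusp23, Usp18, Stat2, Irf9 and genes that passed only with the replicate block were named after their values were seen. Alternatives were other scalings, backgrounds, filters and probe choices, the replicate block, leaving out each array and, chosen after seeing the data, leaving out both 4 h arrays.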

Additional observations from a re-analysis of the deposited data

How the results depend on the processing

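The cause was not tested for any of the changes listed here. Over all members, comparisons and settings, 882 values kept direction and side of the threshold, 14 lost and 4 gained a call, and 18 reversed in sign, none of them past the threshold with either sign. The replicate block raised the members past the threshold from 0 to 2 unstimulated and from 0 to 2 for the mean over times, Ifi204 and Ifi211 in both, Ifi211 having been selected on the unstimulated value that enters each, so that 1 of the other 3 members passed. It changed the call of no other member. Over all genes it raised KO/WT calls from 0, 0, 3 and 9 to 393, 213, 210 and 216 at 0, 1, 4 and 24 h, response calls at 4 and 24 h from 0 to 13 and 78, and calls for the mean from 208 to 2219. The mean had 1 to 161 calls with 1 array left out, fewest without unstimulated replicate 1, 129 with Agilent's processed signals or the mean of probes, and 37 without the 4 h arrays. KO/WT calls were 5 at 4 h and 14 at 24 h with loess only or Aquantile, 1 and 3 with processed signals, and 0 without either of the 4 h arrays at 4 h and without LPS 24 h replicate 2 at 24 h. Without either of the 24 h arrays 3 genes passed unstimulated, and without LPS 1 h replicate 1, 10 passed at 1 h and 8 in the response at 1 h, against 0. After 1 h of LPS in KO, 3 members and 2784 genes passed, against 4381 genes with the block and, with an array left out, 1 to 3 members and at least 1445 genes, both lowest without unstimulated replicate 1. Of the reversals, 16 came with 1 array left out and none was of Mndal. Under those settings Ifi204 KO/WT ran from -0.259 to 0.587 at 1 h, from -0.191 to 0.271 at 4 h and from -0.069 to 0.772 at 24 h, and its response from -0.828 to 0.018 at 1 h and from -0.638 to 0.203 at 24 h, with 0.174 the other value above 0. Ifi211 KO/WT at 4 h ran from -0.136 to 0.508. Aim2 KO/WT ran from -0.188 to 0.0051 at 1 h, from -0.252 to 0.194 at 4 h, from -0.0019 to 0.112 at 24 h and from -0.0978 to 0.0137 as a mean, and its response from -0.086 to 0.107 at 1 h, with -0.056 the other value below 0, and from -0.150 to 0.296 at 4 h. Its WT change ran from -0.070 to 0.241 at 1 h and from -0.0040 to 0.307 at 4 h. With loess only its 4 h change was -0.27 in WT and -0.21 in RNA labelled KO. The filter at 8 left no value for Aim2. With 1 array left out, the lone array is assumed to vary like the others.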
